A study of Mus musculus with 35 samples.

Results

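The Wnt7 signal to brain endothelium was followed through 9 genes chosen by symbol, from the ligands *Wnt7a* and *Wnt7b* over the cell surface proteins *Adgra2*, *Reck* and *Fzd4* to *Ctnnb1* and the responding genes *Lef1*, *Axin2* and *Apcdd1*. All 9 were found among the 53465 genes of the bulk table and among the 21548 genes of the wild-type wells. The study separated wild-type mouse brains at E14.5 by FACS into 4 populations (neural, mural, endothelial and microglial) and measured them by bulk RNA-seq and by scRNA-seq of single sorted cells. The 12 bulk libraries are 4 populations from each of 3 brains. Their titles join a population (N, Mu, Ec or Mi) to a number, which is taken here as the brain (called brain-340, brain-343 and brain-346). Values are given in this order of brains. The wild-type single cells lie on 3 plates, and their population is the sort gate given for each well. *Mof* knockout cells, for which no gate is given, were not used.

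Neural cells were defined by the absence of the surface markers of the other populations, and both progenitor and young neuron genes were found in this gate. Mural cells were selected by high PDGFRβ, endothelial cells by PECAM1 and CD102, and microglia by medium CD45 with CD11b in the bulk sort and with CD41 in the well annotation. Neural bulk libraries were made with the TruSeq kit, and the others with SMART-Seq v4 and Nextera XT. In every comparison of neural cells with another bulk population, the library kit and the population cannot be told apart.

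WNT7A and WNT7B are secreted Wnt proteins made by the neuroepithelium. On endothelial cells, the glycoprotein RECK binds them and, with the adhesion receptor GPR124 (the product of *Adgra2*), presents them to a Frizzled receptor. The signal keeps β-catenin (*Ctnnb1*) from being degraded, so that it can enter the nucleus and act with LEF1 and other TCF factors on target genes. It is known for its part in the growth of vessels into the brain and in the formation of the blood-brain barrier.

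The bulk libraries held between 17638358 and 98414914 reads, and 1 read was worth between 0.264 and 1.77 normalized counts. In bulk samples, fewer cells of a type and less RNA per cell cannot be told apart. All 8 neural, 7 mural, 7 endothelial and 7 microglia markers were detected in their own population, and the summed level of each list was highest there. The neural markers summed to between 107412 and 116279 normalized counts in neural libraries, between 25125 and 45883 in mural, between 14099 and 17305 in endothelial and between 9008 and 11499 in microglia libraries, with all 8 detected everywhere. Fibroblast markers were highest in the mural libraries, with 5 of 6 detected and sums of 5640 to 7754, and *Dpt* at 0. Border macrophage markers summed to 8983 to 11743 in microglia and to at most 994 elsewhere. Erythroid markers summed to 13506, 12168 and 32942 in endothelial libraries, 8484 to 11347 in neural libraries, 1547 to 1969 in microglia and 242 to 402 in mural libraries. Ec-346, with the highest of these sums, also held the lowest endothelial values of *Adgra2*, *Reck* and *Axin2* and the highest of *Wnt7a*, *Wnt7b* and *Ctnnb1*, and the part of erythroid RNA in them was not tested. Of the wells with 1 of the 4 gates, 686 held more than 1500 transcripts and were kept as cells. By gate there were 123 neural, 210 mural, 225 endothelial and 128 microglia cells, with median depths of 7717, 6885, 6408 and 10761 transcripts. Plate 3 gave only 14, 10, 13 and 6 cells, and its 13 endothelial cells stood apart: the mural markers summed to 2996 CPM there (counts of transcripts scaled to the same total in each gate and plate), against 474 and 107 on plates 1 and 2, and the endothelial markers to 2552 against 6449 and 5808. Without plate 3 each of the 29 single-cell differences called for the 9 genes was still called.

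**Figure D1:**
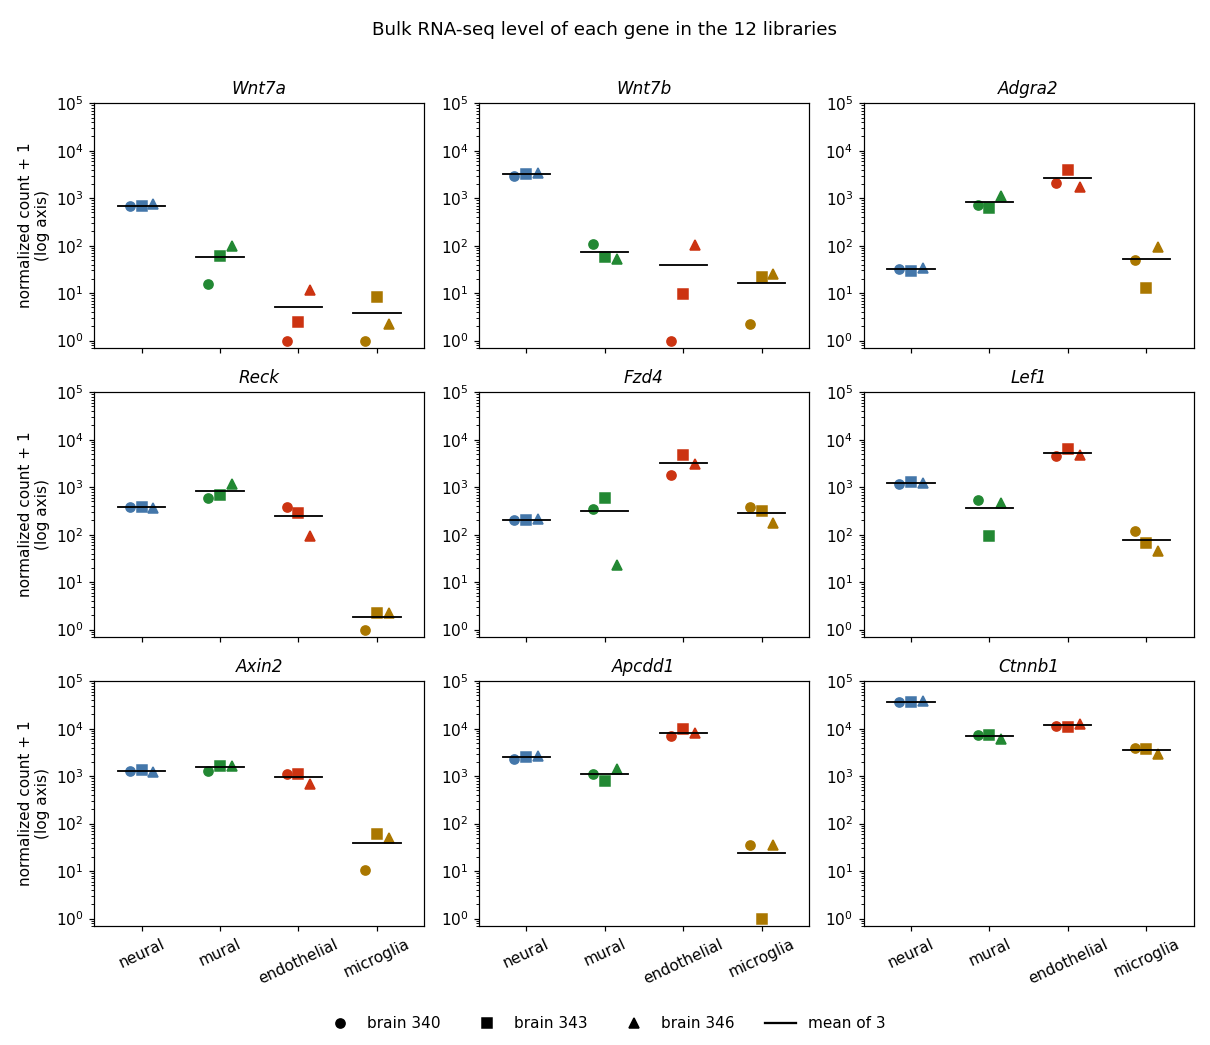
Bulk RNA-seq level of the 9 genes. Each panel is a gene, each point a library (normalized count plus 1, log axis), each marker shape a brain and each black line the mean of 3 libraries. *Wnt7a* and *Wnt7b* were highest in neural cells (means of 700 and 3197), *Adgra2*, *Fzd4*, *Lef1* and *Apcdd1* in endothelial cells (2606, 3221, 5264 and 8296), and *Reck* and *Axin2* in mural cells (824 and 1538).

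In bulk, both ligands were highest in neural cells. *Wnt7a* lies on the minus strand of chromosome 6 of GRCm38, from 91363981 to 91411363 (ENSMUSG00000030093). Its normalized counts in the 3 brains were 682, 675 and 742 in neural cells, 14.9, 60.5 and 98.6 in mural cells, 0, 1.42 and 10.6 in endothelium, and 0, 7.12 and 1.26 in microglia. The neural libraries lay above all others and the mural libraries above the remaining ones, while the endothelial and microglia values rested on 8 and 7 reads in all and overlapped. With limma on log2(normalized count + 1), *Wnt7a* was lower in endothelial than in neural cells by a log2 difference of -7.85 ± 1.07 (SE, adjusted p = 1.1e-04), and higher in neural than in mural cells by 3.93 ± 1.07 (adjusted p = 0.0097, or 0.06 without brain-343, in a range over all alternatives of 1.5e-04 to 0.06). Without Ec-340 or Ec-346 the first of these *Wnt7a* differences was -7.05 and -8.81, and without Mu-340 the second was 3.16. With a pseudocount of 10 the first was -5.74. The mural level also lay above the endothelial one, by 15.1-fold (log2 difference of endothelial from mural cells -3.92, adjusted p = 0.019, or -3.12 without Ec-340, -4.89 without Ec-346, -4.69 without Mu-340 and -2.11 with a pseudocount of 10). That call was lost without any 1 of 3 libraries (Mu-343, Mu-346 or Ec-340), without brain-343 or brain-346 and without all neural libraries, with adjusted p between 0.056 and 0.16, and the range over all alternatives was 0.0033 to 0.16. The summed neural markers were 32.9%, 41.5% and 22.7% of their neural mean in the mural libraries, against 12.7%, 14.4% and 15.6% in the endothelial ones, and mural *Wnt7a* was 2.12%, 8.65% and 14.1% of its neural mean. The part of neural RNA in the mural values was not tested.

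*Wnt7b* (ENSMUSG00000022382, chromosome 15, 85535437 to 85582473, minus strand) was the more abundant ligand. Its neural normalized counts were 2975, 3156 and 3461, against 109, 57.1 and 50.7 in mural cells, 0, 8.52 and 104 in endothelium, and 1.19, 21.3 and 23.9 in microglia. Neural libraries again stood apart, and among the other populations Ec-346 reached into the mural range. *Wnt7b* was 319-fold lower in endothelial than in neural cells (log2 difference -8.32 ± 1.44 SE, adjusted p = 5.7e-04 by limma) and 46.2-fold higher in neural than in mural cells (adjusted p = 0.0075, or 0.098 without brain-343, within a range of 2.6e-06 to 0.098). The endothelial difference from neural cells was -6.66 without Ec-340 and -10.02 without Ec-346, and with edgeR and DESeq2 on recovered reads -6.41 and -6.39, or -6.86 with a pseudocount of 10. The difference of endothelial from mural *Wnt7b* missed the threshold (-2.79, adjusted p = 0.18). It was -4.49 with an adjusted p of 0.019 without Ec-346, and nearer 0 in other settings, at -1.13 without Ec-340, -0.79 without brain-340, -1.51 with a pseudocount of 10, and -0.98 and -0.94 with edgeR and DESeq2 on recovered reads, in a range over all alternatives from 0.019 to 0.66. Relative to the neural mean, *Wnt7b* in the endothelial libraries was 0%, 0.266% and 3.25%, and the summed neural markers were 12.7%, 14.4% and 15.6%. The part of neural RNA in these low values was not tested.

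Per kb of exon, the only scale on which levels of different genes are compared here, the neural level was 653 ± 50.1 for *Wnt7b* and 221 ± 11.5 for *Wnt7a* (mean ± SD, n = 3). With the longest transcript as the length, the *Wnt7b* value was 940 ± 72.2. Among genes, the profile most like that of *Wnt7b* over the 12 libraries was that of *Nrbp2*, with a Pearson r of 0.992, and for *Wnt7a* it was *Tomm40l*, with r = 0.979. The 12 points share populations and kits, so these values describe a pattern and carry no test.

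In single cells, *Wnt7b* was found in 26 of 123 neural cells, or 21.1% (exact 95% interval 14.3 to 29.4), in 2.38% of mural cells, in 2 of 225 endothelial cells and, among 128 microglia, in 0 (upper limit 2.84%). Its level in neural cells was 39.9, 78.1 and 120 CPM on plates 1, 2 and 3. The neural sums exceeded the endothelial sums by 5.41 ± 0.78 (SE) on the log2 scale (edgeR's quasi-likelihood test, adjusted p = 6.0e-08) and the mural sums by 3.84 ± 0.63 (adjusted p = 1.2e-06). Without plate 1 these differences of *Wnt7b* were 4.62 and 7.95, and without plate 2 the second was 2.99. With DESeq2 the first was 4.75 and the adjusted p-values were 0.13 and 0.2, and the other alternatives for *Wnt7b* gave between 5.9e-12 and 0.027. *Wnt7a* transcripts were found in 9 of 123 neural cells, or 7.32%, all of them on plate 2, in 5 of 210 mural cells (2.38%), in 1 endothelial cell and in no microglia, and *Wnt7a* had too few counts to be tested. On plate 1 *Wnt7a* was at 0 CPM in neural and at 11.1 CPM in mural cells, and on plate 2 at 26.0 and 3.54 CPM. The neural markers in mural cells summed to 1162, 540 and 206 CPM on the 3 plates, against 4026, 3682 and 2314 in neural cells, and the part of neural RNA in the mural *Wnt7a* transcripts was not tested. No neural cell held both ligands (upper limit 2.95%), and 35 of 123 held either. With *Wnt7a* in 9 neural cells, all on plate 2, this count of 0 cannot show that different cells made the ligands. Both were found together in 2 of 210 mural cells, of 8 with either, and in 1 of 225 endothelial cells, of 2 with either. Each neural cell was also placed on the side of a progenitor list or of a young neuron list, by the larger summed transcripts. *Wnt7b* was at 46.0 CPM in 45 progenitor-side cells and at 74.8 CPM in 77 neuron-side cells, and *Wnt7a* came from 8 transcripts on the first side and 3 on the other. The intervals of the shares of cells overlapped for both ligands. The sides are a range and not types, 13 cells lay within 5 transcripts of the line, and no test was made.

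**Figure D2:**
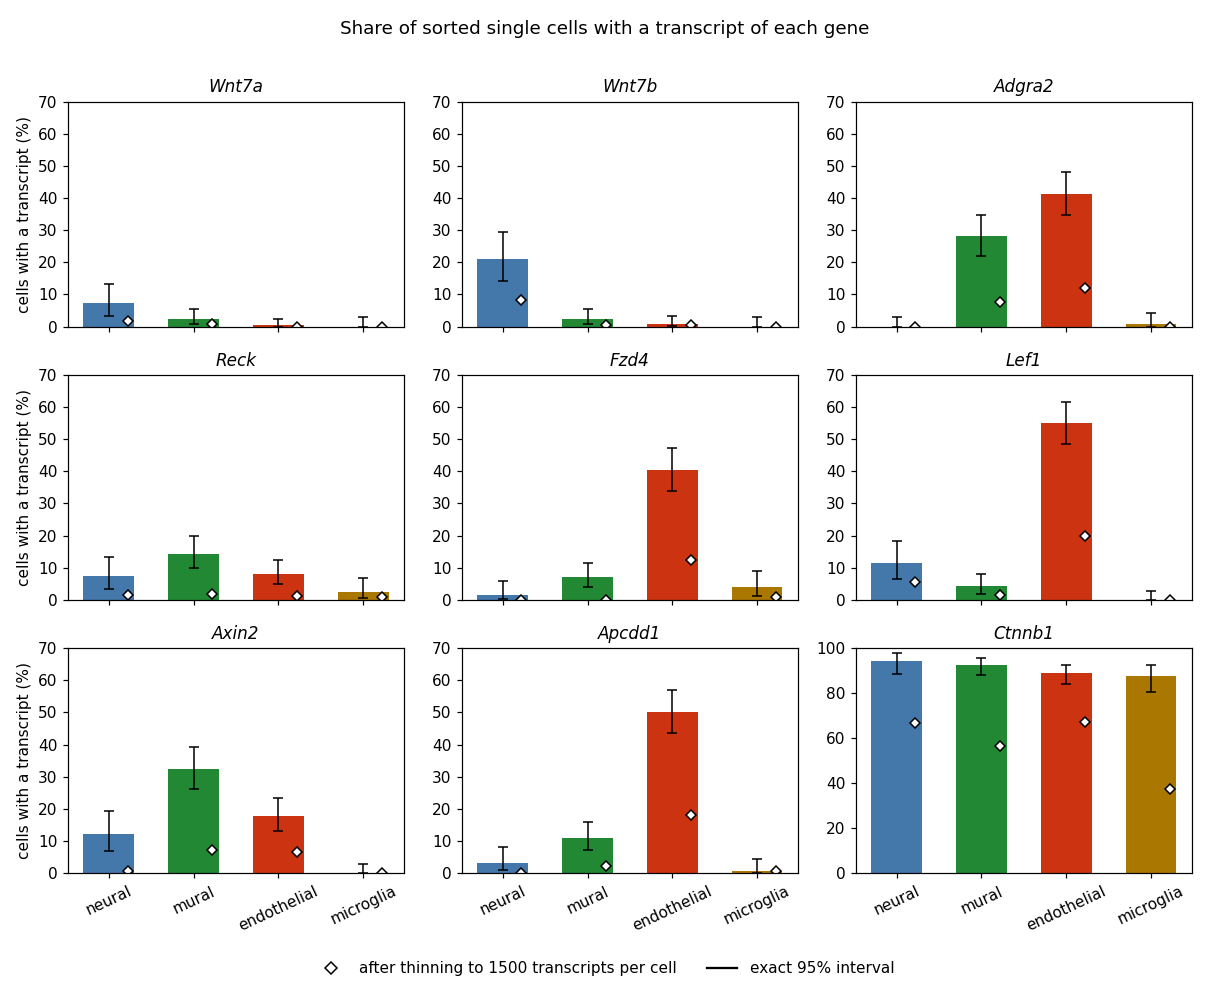
Share of sorted single cells with at least 1 transcript of each gene. Bars are percentages of 123 neural, 210 mural, 225 endothelial and 128 microglia cells, lines are exact 95% intervals for counting error, and open diamonds are the shares after every cell was thinned to 1500 transcripts. *Adgra2*, *Fzd4*, *Lef1* and *Apcdd1* were found in 40.4% to 55.1% of endothelial cells, *Axin2* most often in mural cells (32.4%), and *Ctnnb1* in 87.5% or more of the cells of each gate.

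The cell surface proteins were each distributed differently. *Adgra2*, which encodes the adhesion receptor GPR124 (ENSMUSG00000031486, chromosome 8, 27085583 to 27123436, plus strand), had normalized counts of 2133, 3932 and 1753 in endothelial cells and 702, 632 and 1119 in mural cells. It was at 32.0, 28.8 and 33.3 in neural cells and at 48.7, 11.9 and 90.6 in microglia. Endothelial libraries lay above mural libraries, and both lay far above the other populations. Endothelial cells exceeded neural cells 75.8-fold (log2 difference 6.24 ± 0.63 SE, adjusted p = 1.1e-05 by limma), and mural cells exceeded them 24.5-fold (adjusted p = 1.1e-04). The 3.09-fold difference between endothelial and mural cells missed the threshold (adjusted p = 0.079), and its 95% interval ran from 0.24 to 3.02 on the log2 scale. It passed in a fit without the microglia libraries (adjusted p = 0.012), without Mi-343 or Mi-346 alone (0.015 and 0.045), with a pseudocount of 10 (0.038) and with DESeq2 on recovered reads (0.012), in a range over all alternatives of 0.012 to 0.29.

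Single cells gave *Adgra2* in 93 of 225 endothelial cells (41.3%, exact 95% interval 34.8 to 48.1) and in 59 of 210 mural cells (28.1%, 22.1 to 34.7). In neural cells it was found in 0 of 123. The pooled endothelial level of 102 CPM was 32.8-fold above the 3.11 CPM that 3 transcripts over the neural gate would give. The spread between plates does not enter this ratio. The endothelial sums exceeded the mural sums by 0.90 ± 0.32 on the log2 scale (edgeR, adjusted p = 0.032). The plates did not order the gates alike, since endothelial cells had 95.9, 118 and 42.7 CPM and mural cells 57.0, 47.3 and 137 CPM on plates 1, 2 and 3. Without plate 1 or plate 2 the adjusted p for *Adgra2* was 0.84 and 0.97 (difference 0.18 without plate 2), and it also missed the threshold with DESeq2 (0.86), without a filter on low counts (0.087) and with cells of more than 500 transcripts (0.051), within a range of 0.0017 to 0.97.

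*Reck*, the membrane-anchored partner of GPR124, was not highest in endothelial cells (ENSMUSG00000028476, chromosome 4, 43875530 to 43944806, plus strand). Its normalized counts were 600, 689 and 1182 in mural cells, 383, 389 and 366 in neural cells, 376, 281 and 93.5 in endothelial libraries, and 0, 1.19 and 1.26 in microglia. Mural libraries lay above all others, neural and endothelial libraries overlapped, and microglia held 2 reads in all. The share of reads in endothelial cells was 323 times that in microglia, with a counting interval of 89.0 to 2677. *Reck* was lower in endothelial than in mural cells by a log2 difference of -1.87 ± 0.59 (SE, adjusted p = 0.036 by limma). With the brain as a block the adjusted p was 0.064. The call was also lost without any 1 of 7 libraries (the neural or mural library of any brain, or Ec-346), without brain-343 or brain-346, without all neural libraries (0.11), with a pseudocount of 0.5 (0.058) and without a minimum level (0.05), and *Reck* ranged from 0.0071 to 0.29 over all alternatives. Without brain-346 the difference was -0.98, against -1.87 with it. Neural cells did not differ past the threshold from mural (adjusted p = 0.15) or endothelial cells (adjusted p = 0.26). After quantile normalization the first of these *Reck* values was 0.032, in a range of 0.032 to 0.37.

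In single cells, *Reck* was found in 14.3% of mural cells, in 18 of 225 endothelial cells, in 7.32% of neural and 2.34% of microglia cells, and the exact intervals of neighbouring gates overlapped. Mural cells against microglia was the comparison that passed edgeR's test (log2 difference 2.92 ± 0.76 SE, adjusted p = 0.0013), which with DESeq2 was 0.054 in a range for *Reck* of 9.3e-04 to 0.054. The difference of endothelial cells from microglia missed the threshold (adjusted p = 0.058) but passed with RLE size factors (0.04) and with cells of more than 3000 transcripts (0.047), in a range of 0.04 to 0.25. *Adgra2* and *Reck* were found together in 10 of 225 endothelial cells and 13 of 210 mural cells. At this depth, the absence of either transcript from a cell does not show that the gene was silent there.

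*Fzd4*, a Frizzled receptor for Wnt ligands and for Norrin, was higher in endothelial cells than in each other population (ENSMUSG00000049791, chromosome 7, 89404355 to 89413134, plus strand). It had 1841, 4734 and 3087 normalized counts in endothelial cells, 583 in Mu-343, 21.6 in Mu-346 and a value between these in Mu-340, 203, 199 and 211 in neural cells, and 378, 307 and 178 in microglia. Every endothelial library lay above every other library, while the other populations overlapped and Mu-346 was the lowest value of all. Endothelial cells exceeded neural, mural and microglia cells 14.6-, 18.1- and 10.9-fold (adjusted p = 0.0053, 0.008 and 0.018 by limma). The difference from mural cells was 4.18 on the log2 scale, 2.74 without Mu-346 and 5.09 without Mu-343, and with edgeR and DESeq2 on recovered reads 3.30 and 3.35. The first call was lost without brain-343 (0.052) and the second without brain-340 (0.051). The third was lost without brain-340 (0.088), brain-343 (0.11), Ec-343 (0.057), Mi-346 (0.064) or all neural libraries (0.053). The ranges over all alternatives for *Fzd4* were 7.8e-07 to 0.052, 9.9e-05 to 0.051 and 3.7e-05 to 0.11.

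*Fzd4* was found in 91 of 225 endothelial cells (40.4%, exact 95% interval 34.0 to 47.2), 7.14% of mural, 3.91% of microglia and 1.63% of neural cells. The endothelial sums exceeded the mural, microglia and neural sums by 3.48 ± 0.39, 4.70 ± 0.50 and 5.19 ± 0.55 on the log2 scale (edgeR, adjusted p = 1.0e-10, 7.5e-12 and 1.1e-11), and these calls held in every alternative in which *Fzd4* was tested. Without plate 1 the difference from microglia was 5.74. *Adgra2* and *Fzd4* were found in the same cell in 51 of 225 endothelial cells, or 22.7%, in 5 of 210 mural cells and in no neural cell or microglia. Since *Adgra2* was in 0 of 123 neural cells and 1 of 128 microglia, joint detection could hardly occur in these gates. At least 1 of *Adgra2*, *Reck* and *Fzd4* was found in 61.3% of endothelial, 40.0% of mural, 8.94% of neural and 7.03% of microglia cells.

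*Lef1*, the DNA-binding partner of β-catenin and itself a target of the pathway, was highest in endothelial cells (ENSMUSG00000027985, chromosome 3, 131110471 to 131224356, plus strand). The 250 bases before RefSeq start sites of *Lef1* and of *Axin2*, a second target, are given here because TCF and LEF factors bind the core CTTTGA, and the responding genes are compared here. Windows of RefSeq promoters (GRCm38.p6) were found for 6 of the 9 genes, 10 windows in all, and for *Wnt7b*, *Adgra2* and *Apcdd1* none was found. The core was searched on both strands, and capitals mark its matches (TCAAAG is the core on the opposite strand).
Lef1, first start, chr3:131110047-131110296, plus strand: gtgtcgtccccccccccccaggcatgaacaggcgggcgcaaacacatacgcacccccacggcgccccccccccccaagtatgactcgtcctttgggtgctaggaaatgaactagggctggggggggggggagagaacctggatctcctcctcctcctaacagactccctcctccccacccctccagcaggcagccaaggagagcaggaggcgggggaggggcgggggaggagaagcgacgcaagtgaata
Lef1, internal start, chr3:131156044-131156293, plus strand: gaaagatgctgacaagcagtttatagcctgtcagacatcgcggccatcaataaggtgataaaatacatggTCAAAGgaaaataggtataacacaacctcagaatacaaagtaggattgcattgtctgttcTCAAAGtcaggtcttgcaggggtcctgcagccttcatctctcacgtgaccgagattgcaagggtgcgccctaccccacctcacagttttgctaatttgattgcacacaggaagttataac
Axin2, chr11:108920099-108920348, plus strand: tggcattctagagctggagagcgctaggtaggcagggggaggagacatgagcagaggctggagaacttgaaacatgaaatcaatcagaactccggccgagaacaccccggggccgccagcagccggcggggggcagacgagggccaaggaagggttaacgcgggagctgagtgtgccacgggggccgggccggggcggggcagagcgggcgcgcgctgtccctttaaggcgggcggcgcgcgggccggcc

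Of the 10 windows, 4 belong to *Lef1*, not all of them printed here, and 1 of these 4 holds the core. That is the window of the internal start printed above, inside the *Lef1* gene, with matches at 180 and 120 bases upstream of the start. Another *Lef1* window, chr3:131112541-131112790, also lies inside the gene and does not hold the core. No window of the other genes holds it. Of all 32851 windows of this length, 4544 or 13.8% hold it. A match is a description of the letters and not a site, and its absence says only that these letters are not in the window.

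*Lef1* had 4593, 6412 and 4787 normalized counts in endothelial cells, 1154, 1284 and 1228 in neural cells, 530, 91.3 and 462 in mural cells, and 118, 65.2 and 44.1 in microglia. Endothelial libraries lay highest and neural libraries next without overlap, and Mu-343 fell within the microglia range. By limma, *Lef1* was 4.26-fold higher in endothelial than in neural cells (log2 difference 2.09 ± 0.59 SE, adjusted p = 0.01), 18.4-fold higher than in mural cells (adjusted p = 3.6e-04) and 73.6-fold higher than in microglia (adjusted p = 1.1e-05). Without Mu-343 the difference of *Lef1* from mural cells was 3.39 on the log2 scale, against 4.20 with it. The first of these calls was lost without brain-340 (0.052) or brain-346 (0.074), in a range of 1.9e-04 to 0.074. Neural cells also exceeded mural cells, by 2.11 ± 0.59 (adjusted p = 0.01), for which the adjusted p without brain-343 or brain-346 was 0.064 and 0.053 in a range of 0.0027 to 0.064, and the difference without Mu-343 was 1.30. The smallest step, mural over microglia (adjusted p = 0.02), was lost without any 1 of 4 libraries (Mu-340, Mu-346, Mi-343 or Mi-346), without brain-340 or brain-346 and without all neural libraries (0.056), where *Lef1* reached an adjusted p of up to 0.29 in a range from 1.6e-04.

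In single cells, *Lef1* was found in 124 of 225 endothelial cells (55.1%, exact 95% interval 48.4 to 61.7), 11.4% of neural cells, 4.29% of mural cells and 0 of 128 microglia. Endothelial cells had 163, 135 and 57.0 CPM on the 3 plates, and exceeded neural cells by 2.75 ± 0.38 (edgeR, adjusted p = 3.0e-08) and mural cells by 4.66 ± 0.45 (adjusted p = 9.6e-13) on the log2 scale. Both calls for *Lef1* held in every alternative in which it was tested, and without plate 1 the first difference was 3.37. The pooled endothelial level of *Lef1* was 67.6-fold above the level that 3 transcripts over the microglia gate would give, leaving out the spread between plates. The neural difference from mural cells (adjusted p = 0.016) was lost without plate 1 or 2 (0.38 and 0.33), with DESeq2 (0.14) and without a filter (0.051). That of mural cells from microglia (adjusted p = 0.026) was lost without plate 1 or 2 (0.32 and 0.11) and with DESeq2 (0.13). Over all alternatives these *Lef1* values ranged from 0.0086 to 0.38 and from 0.011 to 0.32.

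*Apcdd1*, a membrane protein that dampens Wnt signalling and is induced by it in brain vessels, followed a similar order (ENSMUSG00000071847, chromosome 18, 62922231 to 62961179, plus strand). Normalized counts were 7176, 9745 and 7966 in endothelial cells, 2346, 2566 and 2626 in neural cells, 1086, 798 and 1393 in mural cells, and 34.5, 0 and 35.3 in microglia. The 4 populations did not overlap. Endothelial cells exceeded microglia 757-fold (adjusted p = 4.1e-05 by limma), while the 3.28-fold difference from neural cells and the 7.72-fold difference from mural cells missed the threshold (adjusted p = 0.19 and 0.064). The log2 difference from microglia was 9.56, and it was 7.84 without Mi-343, 10.42 without Mi-340, 10.43 without Mi-346, 8.24 with a pseudocount of 10, and 8.47 and 8.48 with edgeR and DESeq2 on recovered reads. The fit gives all populations 1 spread, and the microglia values for *Apcdd1* include a 0. In the fit without microglia, added after seeing the data, both differences passed (adjusted p = 2.7e-04 and 4.7e-05), and they also passed without Mi-343 alone, without brain-343, with a pseudocount of 10, and with edgeR or DESeq2 on recovered reads. Over all alternatives the adjusted p ran from 1.2e-04 to 0.38 against neural cells and from 6.0e-06 to 0.22 against mural cells. Neural over mural *Apcdd1* (adjusted p = 0.36) passed only without microglia, without Mi-343 and without brain-343, between 9.7e-04 and 0.011, in a range of 9.7e-04 to 0.54.

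In single cells *Apcdd1* was found in 113 of 225 endothelial cells (50.2%, exact 95% interval 43.5 to 56.9), 23 of 210 mural cells, 3.25% of neural cells and 0.781% of microglia. Endothelial sums exceeded neural sums by 4.92 ± 0.52 and mural sums by 3.16 ± 0.37 (edgeR, adjusted p = 7.4e-12 and 3.5e-10), and both calls for *Apcdd1* held in every alternative in which it was tested. The difference from neural cells was 3.89 without plate 1 and 8.78 without plate 2. Neural and mural cells were ordered differently in the 2 assays. Neural cells were 2.36-fold above mural cells in bulk and 3.39-fold below them in single cells, neither past the threshold (adjusted p = 0.36 and 0.056), and no test compared the assays. The single-cell log2 difference was -1.76, and it was -1.17 without plate 1, -5.25 without plate 2 and -1.92 without plate 3. With the plate as a block it was -1.74 with an adjusted p of 0.042. Without plate 3 the *Apcdd1* value was 0.024, without a filter 0.044 and with cells of more than 500 transcripts 0.042, in a range of 0.024 to 0.49. Mural cells exceeded microglia (adjusted p = 8.3e-04), but not without plate 2 (0.15, in a range of 2.1e-04 to 0.15).

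*Lef1* and *Apcdd1* transcripts were found together in 81 of 225 endothelial cells, or 36.0%. In the other 3 gates no cell held both (upper limits 2.95% for neural, 1.74% for mural and 2.84% for microglia cells). Singly, they were found in 14 and 4 of 123 neural cells, 9 and 23 of 210 mural cells, and 0 and 1 of 128 microglia. With so few cells holding either, these counts of 0 say little about joint detection. *Apcdd1* was found in 65.3% of the 124 endothelial cells with *Lef1* and in 31.7% of those without it, and after thinning in 23.4% and 11.9%. The cells with *Lef1* were deeper, with a median of 7588 transcripts against 4934. *Adgra2*, *Fzd4* and *Axin2* were also found in a larger share of the cells with *Lef1* (62 of 124 cells, 47.6% and 24.2%, against 30.7%, 31.7% and 9.90%), and after thinning the shares were 13.7% and 9.90% for *Adgra2*, 13.7% and 10.9% for *Fzd4*, and 7.26% and 5.94% for *Axin2*. *Reck* was found in 8.87% of the cells with *Lef1* and in 6.93% of those without it, and after thinning in 0.806% and 1.98%. These shares are descriptions of cells that share libraries, and no test was made.

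*Axin2*, a scaffold of the β-catenin destruction complex that the pathway induces in most tissues as feedback, did not follow *Lef1* and *Apcdd1* (ENSMUSG00000000142, chromosome 11, 108920349 to 108950783, plus strand). Normalized counts were 1284, 1656 and 1673 in mural cells, 1257, 1334 and 1227 in neural cells, 1083, 1110 and 695 in endothelial libraries, and 9.51, 58.1 and 49.1 in microglia. Microglia stood far below the rest, and endothelial libraries lay under both neural and mural libraries, Ec-346 further below them than Ec-340 and Ec-343. Mural, neural and endothelial cells exceeded microglia 48.6-, 40.5- and 30.0-fold (adjusted p = 1.2e-05, 9.4e-06 and 3.5e-05 by limma). On the log2 scale these *Axin2* differences were 5.60, 5.34 and 4.91, and without Mi-340 they were 4.81, 4.55 and 4.11. Endothelial cells were -0.70 ± 0.54 from mural cells and -0.43 ± 0.54 from neural cells on the log2 scale (adjusted p = 0.37 and 0.52), with 95% intervals of -1.89 to 0.50 and -1.63 to 0.76. For mural cells the adjusted p was 0.042 without the microglia libraries and 0.049 without Mi-340 alone, in a range for *Axin2* of 0.042 to 0.76.

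In single cells, *Axin2* was found in 68 of 210 mural cells (32.4%, exact 95% interval 26.1 to 39.2), 40 of 225 endothelial cells (17.8%), 15 of 123 neural cells (12.2%, 6.99 to 19.3) and 0 of 128 microglia. Mural cells had 63.3, 95.7 and 27.5 CPM on the 3 plates, endothelial cells 26.1, 28.3 and 42.7, and neural cells 19.9, 21.3 and 10.9. Mural cells led on plates 1 and 2 and endothelial cells on plate 3, where few cells were kept. Mural sums exceeded endothelial sums by 1.29 ± 0.36 (edgeR, adjusted p = 0.0053) and neural sums by 1.92 ± 0.42 (adjusted p = 1.9e-04). The first was lost without plate 1 (0.53) or plate 2 (0.86, with endothelial minus mural at -0.63) and with DESeq2 (0.52), in a range of 5.0e-04 to 0.86. The second was lost without plate 2 (0.24) and at the threshold with DESeq2 (0.05), in a range for *Axin2* of 2.8e-05 to 0.24. Among all genes tested, the bulk profiles most like that of *Axin2* were those of *Agrn*, *Reck* and *Mmp15*, each with a Pearson r of 0.980 over the 12 libraries.

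*Ctnnb1*, which encodes β-catenin (ENSMUSG00000006932, chromosome 9, 120929216 to 120960507, plus strand), was the most abundant of the 9 genes per kb of exon in each population. Normalized counts were 36312, 36400 and 37579 in neural cells, 11629, 10987 and 12794 in endothelial cells, 7385, 7224 and 6113 in mural cells, and 3849, 3703 and 2975 in microglia. The populations did not overlap. All 6 pairwise differences passed limma's test, from 1.71-fold for endothelial over mural cells (adjusted p = 6.0e-04) to 10.5-fold for neural cells over microglia (adjusted p = 5.1e-09), and each call held in every alternative. With quantile normalization the neural difference from microglia was 4.09 on the log2 scale, against 3.40 without it, and that of endothelial from neural cells was -2.31, against -1.64. β-catenin also belongs to cell-cell junctions, so its transcript level is not specific to the pathway.

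The single cells did not repeat the neural lead of *Ctnnb1*. It was found in 94.3% of neural, 92.4% of mural, 88.9% of endothelial and 87.5% of microglia cells, and the levels were 743, 557, 858 and 331 CPM. Endothelial cells exceeded microglia by 1.28 ± 0.34 on the log2 scale and neural cells exceeded them by 0.95 ± 0.33 (edgeR, adjusted p = 0.0016 and 0.017), and the other 4 differences missed the threshold, with adjusted p between 0.12 and 0.46. With the plate as a block, endothelial and mural *Ctnnb1* differed (log2 difference 0.73, adjusted p = 0.009). Endothelial and neural sums were 0.33 ± 0.32 apart in single cells, against -1.64 ± 0.12 in bulk, and no test compared the assays. Plate 3 weighed on these *Ctnnb1* values. Without it, endothelial cells exceeded neural (0.027) and mural cells (8.7e-04) and mural cells exceeded microglia (0.0088). With RLE size factors mural cells differed from endothelial cells (0.039) and from microglia (0.03). Without plate 1 or plate 2 the neural difference from microglia was lost (0.14 and 0.17), as it was without a filter (0.11), and without plate 2 that of endothelial cells was at 0.05. The ranges over all alternatives, in this order, were 0.027 to 0.67, 8.7e-04 to 0.67, 0.0088 to 0.51, 1.5e-04 to 0.17 and 1.6e-07 to 0.05.

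Set beside all genes tested in bulk, the share of the 9 genes that differed lay closer to the background in the comparisons with neural cells than in the others. In these libraries 6 of 9 differed between endothelial and neural cells, where 57.7% of 19765 genes did, with 3 higher (27.1% of all genes) and 3 lower (30.6%). Between endothelial and mural cells 5 of 9 differed (27.8%), 3 higher (14.3%) and 2 lower (13.5%). Between endothelial cells and microglia 7 of 9 differed (32.4%), all higher in endothelial cells (15.3%) and none lower (17.0%), and the ligands were the genes that did not pass. Neural cells differed from mural cells in 5 of 9 (54.6%), 4 higher (28.7%) and 1 lower (25.8%). They were higher than microglia in 7 of 9 (59.8% in either direction, 30.4% higher and 29.3% lower), and mural cells were higher than microglia in 7 of 9 (38.0%, 17.9% higher and 20.1% lower).

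The libraries of endothelial and neural cells did not overlap for 8 of the 9 genes, where 69.6% of all genes had no overlap. The number was 8 for endothelial and mural cells (35.0%), 7 for endothelial cells and microglia (39.0%) and 7 for neural and mural cells (71.5%). It was 7 both for neural cells and microglia (77.9%) and for mural cells and microglia (47.8%). The median difference over the 9 genes was -0.43 for endothelial minus neural cells (-0.17 over all genes), 0.78 for endothelial minus mural cells (0.00) and 4.91 for endothelial cells minus microglia (-0.07). It was 1.24 for neural minus mural cells (0.13), 4.12 for mural cells minus microglia (-0.05) and 5.34 for neural cells minus microglia (0.08).

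In single-cell sums 8 of the 9 genes were tested. Between endothelial and neural cells 5 differed (36.4% of 9281 genes), 4 higher (18.3%) and 1 lower (18.1%), and between endothelial and mural cells likewise 5 (20.7%), 4 higher (11.5%) and 1 lower (9.17%). Against microglia 6 were higher in endothelial cells (36.2% in either direction, 18.7% higher and 17.5% lower), 4 in neural cells (44.3%, 23.2% and 21.2%) and 5 in mural cells (37.7%, 18.8% and 18.9%). Between neural and mural cells 4 differed (33.1%), 2 higher (17.7%) and 2 lower (15.4%). A gene could pass the filter on low values through the population where it is high, so these counts describe the 9 genes and are no test of them as a list.

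**Figure D3:**
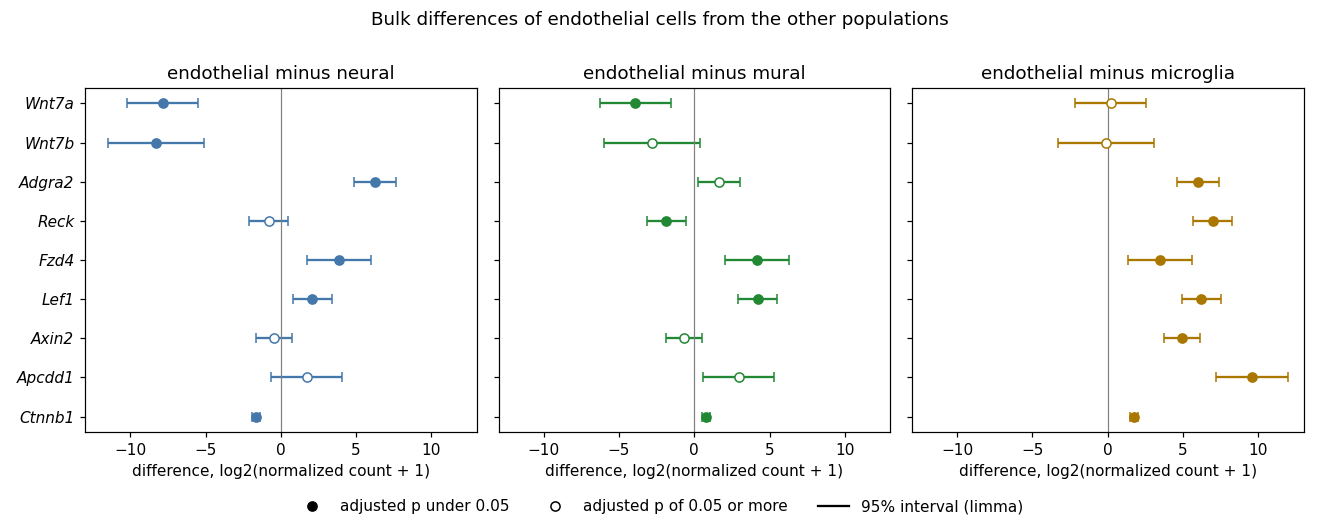
Bulk differences of endothelial cells from neural cells, mural cells and microglia for the 9 genes, on the scale of log2(normalized count + 1). Points are limma estimates with 95% intervals, filled where the adjusted p is under 0.05. Against neural cells *Wnt7a* and *Wnt7b* lay at -7.85 and -8.32 and *Adgra2* at 6.24, and against microglia 7 of 9 genes were higher.

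**Figure D4:**
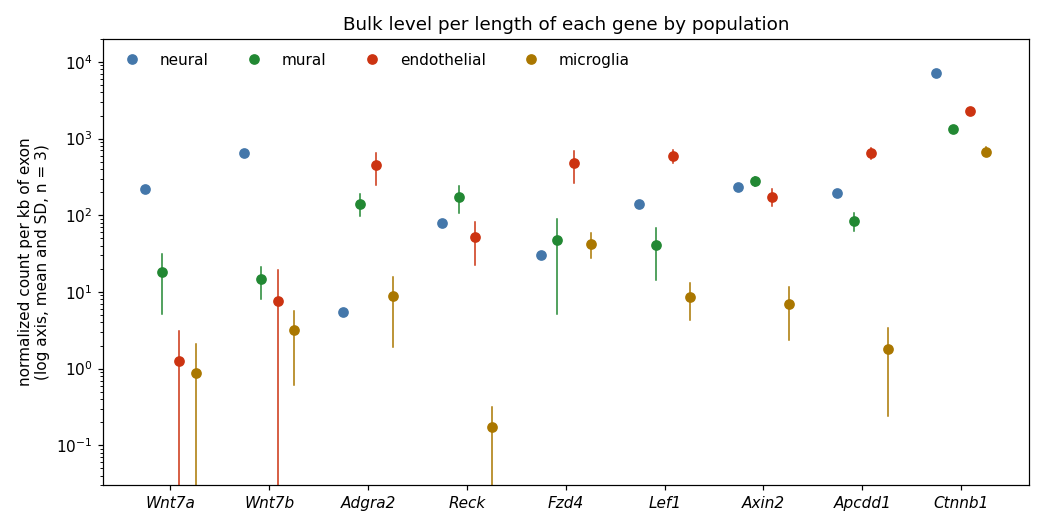
Bulk level per length. Points are mean normalized counts per kb of exon with the SD over 3 libraries (log axis), coloured by population. In endothelial cells *Apcdd1* (644), *Lef1* (599), *Fzd4* (479) and *Adgra2* (451) lay close together, above *Axin2* (175) and *Reck* (52.3).

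Per kb of exon, the endothelial level was 2273 ± 176 for *Ctnnb1*, 644 ± 102 for *Apcdd1*, 599 ± 114 for *Lef1*, 479 ± 216 for *Fzd4* and 451 ± 202 for *Adgra2* (mean ± SD, n = 3). It was 175 ± 42.1 for *Axin2* and 52.3 ± 30.0 for *Reck*. The values of *Apcdd1*, *Lef1*, *Fzd4* and *Adgra2* lie within 1 SD of their neighbours in this order, taking the larger SD of each pair. By the longest transcript instead of all exons, *Lef1* rose to 1440 ± 273, above *Apcdd1* at 763 ± 121. In mural cells the order of the surface proteins was reversed, with *Reck* at 172 ± 65.6, *Adgra2* at 142 ± 45.5 and *Fzd4* at 47.0 ± 41.9, of which *Reck* and *Adgra2* lie within 1 SD of each other.

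The rest of the pathway was described by 7 lists. Of the 18 other Wnt ligands and Norrin, 8 had enough reads to be tested, and none was highest in endothelial cells or microglia. Against neural cells 6 of 8 were lower in endothelial cells and none was higher, where 30.6% and 27.1% of all genes were. *Wnt5a*, a ligand best known for signalling without β-catenin, was at 777 ± 234 normalized counts in mural cells, 686 ± 23.7 in neural cells, 204 ± 100 in endothelial cells and 0 in all 3 microglia libraries (mean ± SD, n = 3). *Ndp*, which encodes Norrin, the other ligand of FZD4, was at 97.5, 99.7 and 106 in neural cells and at 105, 0 and 0.939 in mural cells, so its mural level came from brain-340 alone.

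Of the 17 other receptors, 13 were highest in neural cells. Of all genes tested, 33.9% had their highest mean in neural libraries, 24.7% in microglia, 21.0% in endothelium and 20.4% in mural cells. *Fzd2* was at 1721 ± 38.2 in neural cells and 9.45 ± 16.4 in endothelial cells. *Fzd6* was an exception, with 4077, 6186 and 4012 normalized counts in endothelial cells, 891, 1895 and 1738 in mural cells, 86.8, 62.0 and 81.4 in neural cells and 1.19, 0 and 0 in microglia. Of the 17, 2 were higher and 7 lower in endothelial than in neural cells, where 27.1% and 30.6% of all genes were. Among 16 genes of ligand secretion and the cytoplasmic relay, 14 were lower in endothelial than in neural cells (30.6% of all genes) and none was higher (27.1%). *Porcn*, which attaches the lipid that Wnt ligands need for secretion, was at 1107 ± 27.3 in neural cells, against 153 ± 137 in endothelial, 98.1 ± 93.4 in mural and 9.69 ± 0.331 in microglia cells. The library kit changes together with neural cells in these counts, and its part was not tested. In single-cell sums 7 of 13 genes of this list were lower in endothelial than in neural cells, against 18.1% of all genes, and none was higher. No test compared the assays.

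**Figure D5:**
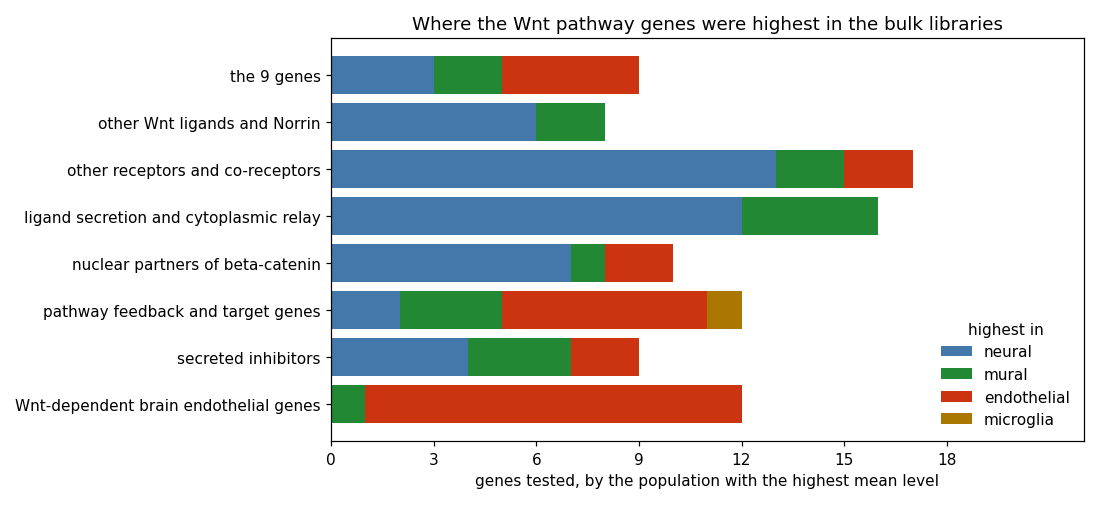
Number of genes of each list by the population with the highest mean bulk level. The 7 other lists of the Wnt pathway are set beside the 9 genes. Of the receptors 13 of 17 were highest in neural cells, and of the Wnt-dependent endothelial genes 11 of 12 in endothelial cells.

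Of the 10 nuclear partners of β-catenin, 7 were highest in neural cells (33.9% of all genes), and 6 were lower (30.6%) and 2 higher (27.1%) in endothelial than in neural cells. *Tcf7*, a close relative of *Lef1*, shared its endothelial lead, with 2162, 1367 and 1730 normalized counts in endothelial cells, 664, 519 and 612 in mural cells, 89.5, 67.6 and 70.5 in neural cells and 68.9, 15.4 and 62.9 in microglia. *Tle3*, a corepressor, was at 9597 ± 314 in neural and 1686 ± 731 in endothelial cells. Of the 12 feedback and target genes tested, 6 were highest in endothelial cells (21.0% of all genes), 4 were higher (27.1% of all genes) and 1 was lower (30.6%) in endothelial than in neural cells, and 7 were higher than in microglia (15.3%). *Nkd1*, a feedback inhibitor, was at 6655, 8474 and 7156 in endothelial cells and between 858 and 1767 in neural and mural cells. Its paralog *Nkd2* was at 2118 ± 118 in mural cells and at 208 ± 86.8 in endothelial cells. *Tnfrsf19*, another target, was at 3781 ± 1445 in mural and 3649 ± 1180 in endothelial cells.

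Of the 9 secreted inhibitors tested, 4 were highest in neural, 3 in mural and 2 in endothelial cells. *Sfrp1* was at 5009 ± 139 in neural cells, 639 ± 486 in mural cells and 154 ± 255 in endothelial cells. *Dkk3*, a secreted relative of the Dickkopf inhibitors, was at 2130, 2366 and 3134 in mural cells and between 4.26 and 274 in endothelial cells, and *Sfrp2* was at 2081 ± 649 in mural cells. Among the 9, 2 were higher (27.1% of all genes) and 3 lower (30.6%) in endothelial than in neural cells. In single-cell sums 3 of the 4 tested were lower in endothelial than in mural cells, against 9.17% of all genes.

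The 12 genes listed as dependent on Wnt signals in brain endothelium were highest in endothelial cells with 1 exception. All 12 were higher there than in microglia and 10 of 12 higher than in neural and in mural cells, against 15.3%, 27.1% and 14.3% of all genes in these directions. *Slco1c1*, a thyroid hormone transporter of the barrier, was at 6948, 5776 and 8455 normalized counts in endothelial cells and at most 48.8 elsewhere. *Foxq1*, a transcription factor, was at 4392 ± 601 in endothelial and 1763 ± 387 in mural cells. *Plvap*, a protein of leaky vessels that Wnt signals are known to hold down, was at 1834, 12091 and 6977 in endothelial cells and at most 177 elsewhere, so the list contains genes with both directions of response. Most of its genes are also general markers of endothelial cells, and the counts were not tested against other endothelial genes.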

How the data were processed

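The bulk table, as the authors deposited it, holds normalized counts, a signal on a linear scale. The labels name STAR, featureCounts, DESeq2, BWA 0.6.2-r126 and the mm10 build without their roles. In each library the values are whole reads divided by 1 factor: of 124078 values checked, 100% were whole within 0.01 reads. The values of the single cells, also as deposited by the authors, are expected counts of transcripts, corrected for molecular identifiers drawn more than once. Names, positions and exon lengths came from GENCODE vM21 (GRCm38).

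Bulk populations were compared with limma 3.58.1 on log2(normalized count + 1) with its trend option, for 19765 genes with a mean of at least 10. Transcripts summed over the cells of each gate and plate were rounded and compared with edgeR 4.0.16 (quasi-likelihood, TMM, its own filter). R was version 4.3.3, and DESeq2 1.42.0 was an alternative. Tests were two-sided, with Benjamini-Hochberg adjustment over all genes and a threshold of 0.05. The 12 sums held between 50756 and 959426 transcripts. Labels do not say whether a plate is 1 brain, so p-values from plates may measure technical spread. Each well received 1 sorted cell, so doublets were not called. Intervals of shares are exact (Clopper-Pearson, 95%) and cover counting error only.

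Bulk libraries with the same number come from the same brain. The residual correlation of the 18 same-brain pairs ran from -0.054 to 0.0801. The 9 genes, the lists and the alternatives were chosen with earlier results of these data known. Named list genes are the up to 4 of each list with the largest called difference between highest and lowest population, of which those the text turns on are described, and for each of the 9 genes the 3 with the highest r, given here for *Wnt7a*, *Wnt7b* and *Axin2*. Deposited *Mof* knockout counts were not used.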

Additional observations from a re-analysis of the deposited data

Results flagged for a closer look

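Outside the 4 populations, 23 cells with more than 1500 transcripts came from a gate of medium or low PDGFRβ, which enters no test. In these cells 4 of the 9 genes stood above the limit of 3 transcripts that a count of 0 allows. They held 5 *Wnt7a* transcripts, in 3 cells (exact 95% interval 2.78% to 33.6%), and 21 *Wnt7b* transcripts, in 6 cells (26.1%, 10.2 to 48.4). These are 30.5 and 128 CPM, above the 11.4 and 64.2 CPM of the neural gate, and the exact intervals of the shares of cells overlapped with those of neural cells. *Axin2* had 10 transcripts in 8 cells (34.8%, 16.4 to 57.3), and *Ctnnb1* had 127 transcripts in 18 cells. *Adgra2* and *Lef1* had 3 transcripts each, *Apcdd1* had 1, and *Reck* and *Fzd4* had 0. The mural markers *Rgs5* and *Pdgfrb* were found in 52.2% and 43.5% of these cells, the neural markers *Dcx* and *Tubb3* in 4 and 3 cells, *Pecam1* in 8.70% and *Cdh5* in none. The part of mixed populations in these values was not tested.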

How the results depend on the processing

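Of 37 called bulk differences of the 9 genes, none changed sign in 886 alternative values and 41 values missed the threshold. Of 29 called single-cell differences, none changed sign in 261 values and 25 missed it. All sign changes were in differences that were not called. *Wnt7b*, endothelial minus microglia, was -0.10 and became 0.28 with pseudocount 10, 0.15 with quantile normalization, 1.30 with edgeR and 1.28 with DESeq2 on recovered reads, and ran from -1.79 to 1.57 when a replicate was left out. *Fzd4*, neural minus mural, was 0.31 and became -0.09, -0.65 and -0.65 in the last 3 of these settings and ran from -1.15 to 1.24. *Fzd4*, mural minus microglia, was -0.73 and became 0.16 and 0.14 with edgeR and DESeq2 and ran from -1.64 to 0.70. With replicates left out, *Wnt7a*, endothelial minus microglia, ran from -0.87 to 1.18, and *Adgra2*, neural minus microglia, from -1.06 to 0.35. In single-cell sums with a plate left out, *Wnt7b* ran from -2.54 to 3.34 (endothelial minus mural) and from 0.00 to 4.74 (mural minus microglia), *Fzd4* from -0.79 to 0.09 and *Apcdd1* from -2.48 to 4.57 (both neural minus microglia).

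In endothelial against mural cells, 5 of the 9 genes were called in bulk, 3 without the neural libraries, 8 without the microglia libraries (added after seeing the data) and 3 to 7 with a replicate left out. Of all genes, these settings called 5496, 3841, 5290 and 3517 to 5633. In neural against mural cells 5 of the 9 genes were called, and 3 to 6 with a replicate left out, against 10789 and 8535 to 11371 of all genes. In the single-cell sums a plate left out gave 3 to 6 of the 9 genes for endothelial against mural, 2 to 5 for neural against mural and 2 to 6 for mural against microglia. Of all genes it gave 571 to 2561, 1050 to 3709 and 1446 to 4288. DESeq2 called 3, 1 and 3 of the 9 genes in these comparisons. After thinning to 1500 transcripts, 1 of 8 genes kept enough counts to be tested, and 0, 0, 1, 0, 1 and 0 were called in the order of endothelial against neural, mural and microglia, neural against mural and microglia, and mural against microglia.

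Over all genes, quantile normalization moved the median of endothelial minus neural from -0.17 to 0.05, of neural minus mural from 0.13 to -0.08 and of neural minus microglia from 0.08 to -0.09, and RLE size factors moved the single-cell medians against microglia from 0.04, 0.05 and -0.01 to 0.18, 0.20 and 0.17. DESeq2 called 1966, 794, 1905, 1700 and 2074 genes in single-cell sums, against 3381, 1919, 3358, 3069 and 3498 by edgeR (endothelial against neural, mural and microglia, neural against mural, mural against microglia). Thinning left 416 to 822 calls in the 6 comparisons. A plate left out gave from 571 (endothelial against mural) to 4969 (neural against microglia), and a bulk replicate left out gave 3517 to 5633 for endothelial against mural, where 5496 were called. The cause of these shifts was not tested. Blocks for brain and plate changed no call of the 9 genes other than those of *Reck*, *Ctnnb1* and *Apcdd1* given above, and left 6, 4, 7, 5, 7 and 7 called in bulk. By depth, the low levels of *Wnt7a*, *Wnt7b* and *Reck* in microglia and of the ligands in endothelial cells rest on few reads.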
